A study of Mus musculus with 4 samples.

Results

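ERVB2, ERVB3, ERVB4 and ERVB5 are groups of endogenous retroviruses in the mouse genome, and their expression was compared between G3 Terc-/- and WT embryonic stem cells (ESCs). The elements were taken by name, as every transposable element (TE) copy whose repeat name starts with ERVB, without the ERVB7 names. This gave 5606 of the 3658072 TE copies counted, under 16 of 1072 repeat names. ERVB4 was the largest group with 3987 copies under 9 names, ERVB5 had 955 copies under 3 names, ERVB2 had 372 copies under 2 names and ERVB3 had 292 copies under 2 names.

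RNA-seq libraries were made from poly(A) RNA of C57BL/6 ESCs grown on feeder cells with leukemia inhibitory factor. The 2 WT libraries came from the line N12, which the labels call G3 WT. The 2 G3 Terc-/- libraries came from the line F35, which lacks the telomerase RNA gene Terc, and ESCs of this generation were derived by intercrossing G2 Terc-/- mice, the question being how TE expression depends on telomere length. Each genotype was represented by 1 line, so that a difference between genotypes cannot be told apart from a difference between lines, and the spread between the 2 libraries of a line may be technical.

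An endogenous retrovirus is the inherited remnant of a retroviral infection of the germ line. A complete copy has an internal part with the gag, pro, pol and sometimes env genes between long terminal repeats (LTRs), which hold the promoter and the polyadenylation signal. Recombination between the LTRs of a copy leaves a solitary LTR, which can still start transcription. The ERVB elements belong to the betaretrovirus-like class that also contains the intracisternal A particles (ERVK). In ESCs such elements are known to be silenced by KRAB zinc finger proteins, TRIM28 and SETDB1 with H3K9 methylation, and by DNA methylation.

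Libraries held 18047995 to 22520017 gene counts and 1805047 to 2104586 TE counts. Terc (gene identifier 21748, chromosome 3) had 7 and 2 counts in WT ESCs and was at 0 in each G3 Terc-/- library (an observed 0 allows up to 3 counts). Summed over 7 pluripotency genes (Pou5f1, Nanog, Sox2, Esrrb, Klf4, Tdgf1 and Dppa5a), the level was 5317 and 5362 counts per 1000000 gene counts (CPM) in WT against 6705 and 6997 in G3 Terc-/- libraries. By adjusted p 6 of the 7 were higher, with Nanog 2.24-fold, and Dppa5a was lower (log2 fold change -0.79). Summed over 9 feeder fibroblast genes it was 148 and 92.3 CPM in WT against 176 and 119 in G3 Terc-/- libraries, which overlapped. Of the 9 fibroblast genes 7 had enough counts for a test, and 4 of these (Col3a1, Dcn, Pdgfrb and Fbn1) were higher by adjusted p, without overlap, at log2 fold changes of 0.46 to 1.04. Their median was 0.46 over the 7, and none of the 9 was at 0. The 5 primitive endoderm genes summed to 13.8 and 13.0 CPM in WT against 9.64 and 6.82 in G3 Terc-/- libraries. By adjusted p 2 of these 5 were lower and 0 were higher. Genes of 2-cell-like cells (Zscan4c, Zscan4d and 5 others) summed to 2.63 and 3.29 CPM in WT against 29.5 and 31.6 in G3 Terc-/- libraries, and 7 of 7 were higher at a fold of 2 with an unadjusted p under 0.05, against 4.73% of all genes tested. The part of these differences in the ERVB values was not tested.

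In the names used here, "-int" marks an internal part and "LTR" a long terminal repeat. Internal parts made up 8 names and 2874 copies and held 19.3% of the ERVB2 to ERVB5 counts. LTRs made up 8 names and 2732 copies and held 80.7% of them. Both kinds of element were thus listed in similar numbers, but most of the RNA counted lay on LTRs. This share came mainly from ERVB4_1C-LTR_Mm (46.5% of the ERVB2 to ERVB5 counts) and ERVB4_1B-LTR_MM (28.1%), and was not a trait of every LTR name.

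The elements had 22835 counts in all. In WT libraries they had 6239 and 6413 counts, which is 3030 and 3047 CPM when scaled to 1000000 TE counts, and in G3 Terc-/- libraries 5405 and 4778 counts, or 2617 and 2647 CPM. The summed level was lower in both G3 Terc-/- libraries than in both WT libraries, at a log2 ratio of the means of -0.21. The difference was larger than the spread between libraries (SD 12 CPM in WT and 21.3 CPM in G3 Terc-/-, n = 2 each). A two-sided exact permutation test on 2 libraries of each genotype gives a p of 0.33 at the least. The mean of the sum was 3039 CPM in WT and 2632 CPM in G3 Terc-/- libraries. ERVB4_1C-LTR_Mm alone had a net fall of 727 CPM, a larger fall than that of the sum. All other names together were thus higher on average in G3 Terc-/- libraries. In cultures measured in bulk, fewer cells that express an element and less RNA per cell cannot be told apart.

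Group by group, the summed levels went in different directions. ERVB3 internal parts had 44.2 and 50.4 CPM in WT against 117 and 134 CPM in G3 Terc-/- libraries, a log2 ratio of 1.41. ERVB3 LTRs had 48.1 and 49.4 CPM in WT against 94.4 and 105 CPM in G3 Terc-/- libraries, a log2 ratio of 1.03. Both parts of ERVB3 were therefore higher in each G3 Terc-/- library than in any WT library. ERVB4 LTRs had 2471 and 2481 CPM in WT against 1856 and 1824 CPM in G3 Terc-/- libraries (log2 ratio -0.43), whereas ERVB4 internal parts had 267 and 283 CPM in WT against 343 and 382 CPM in G3 Terc-/- libraries (log2 ratio 0.40). ERVB4 was the group in which the sums of LTRs and internal parts moved in opposite directions beyond the spread between libraries. The difference between them was not tested. The fall of the LTR sum came from ERVB4_1C-LTR_Mm alone (mean 1671 CPM in WT and 944 CPM in G3 Terc-/-). On average ERVB4_1B-LTR_MM (775 and 825 CPM), ERVB4_2-LTR_MM (28.1 and 67.6 CPM) and ERVB4_3-LTR_MM (1.92 and 3.32 CPM) were higher in G3 Terc-/- libraries. ERVB2 internal parts lay between 114 and 120 CPM in all 4 libraries. ERVB5 internal parts had 28.7 and 15.7 CPM in WT against 40.7 and 40.4 CPM in G3 Terc-/- libraries, a log2 ratio of 0.87 that came to 0.50 without WT replicate 2 and to 1.37 without WT replicate 1. ERVB5 LTRs, with 55.9 and 48.5 CPM in WT against 51.3 and 42.7 CPM in G3 Terc-/- libraries, overlapped between the genotypes.

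**Figure D1:**
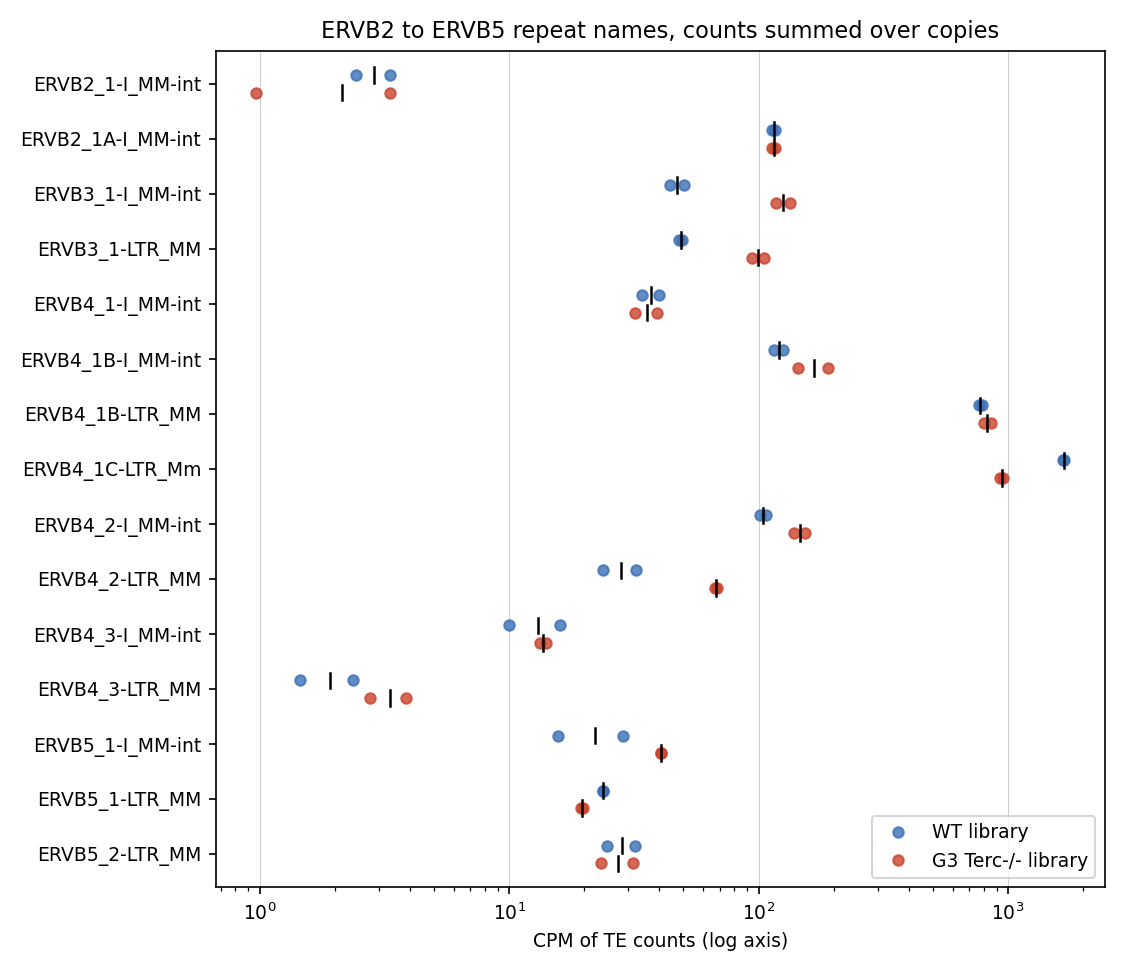
Level of each of the 15 ERVB2 to ERVB5 repeat names with counts, in CPM of the TE counts on a log axis; each point is 1 library, blue for WT and red for G3 Terc-/-, and the black tick is the mean of 2 libraries. The red points lie furthest to the right of the blue ones for ERVB3_1-I_MM-int, ERVB3_1-LTR_MM and ERVB4_2-LTR_MM. By less, they also lie to the right without overlap for ERVB4_1B-I_MM-int, ERVB4_1B-LTR_MM, ERVB4_2-I_MM-int, ERVB4_3-LTR_MM and ERVB5_1-I_MM-int. They lie to the left for ERVB5_1-LTR_MM and for ERVB4_1C-LTR_Mm, the name with the highest level (1671 CPM in WT and 944 CPM in G3 Terc-/- on average).

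The test of repeat names was edgeR's quasi-likelihood test, fitted to all 917 names with enough counts, and a name was called where the fold change was over 1.5 (0.585 on the log2 scale) with an unadjusted p under 0.05. Of the 16 ERVB2 to ERVB5 names, 13 were tested, 7 internal parts and 6 LTRs. In G3 Terc-/- ESCs 4 of the 13 were higher (30.8%, against 5.13% of all names tested) and 1 was lower (7.69%, against 2.94%). Those higher were 2 internal parts (ERVB3_1-I_MM-int and ERVB5_1-I_MM-int) and 2 LTRs (ERVB3_1-LTR_MM and ERVB4_2-LTR_MM), and the one that was lower was the LTR ERVB4_1C-LTR_Mm. All 5 also had an adjusted p under 0.05 in that test with Benjamini-Hochberg adjustment, against 4.14% (higher) and 2.62% (lower) of all names. The median log2 fold change was 0.04 over the 13 names and -0.0046 over all names. Without the copy with most counts of each name, 11 of the ERVB names could be tested, of which 3 were higher and 1 was lower, against 4.8% and 2.34% of the 854 names tested in that way. Without the 5 copies with most counts of each name, a step chosen after seeing the data, 10 could be tested, of which 2 were higher and 0 were lower, against 4.7% and 1.52% of 723 names. Those 2 were ERVB4_1B-LTR_MM and ERVB4_2-I_MM-int, and 0 of the 5 names called before were called then. Of these 5, ERVB3_1-I_MM-int had too few counts left for a test. ERVB5_1-I_MM-int kept a log2 fold change of 0.82 (SE 0.57, unadjusted p = 0.163 in edgeR's quasi-likelihood test).

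ERVB4_1C-LTR_Mm held 46.5% of the ERVB2 to ERVB5 counts and had the smallest p of the group. It had 3462 and 3495 counts in WT against 1926 and 1724 in G3 Terc-/- libraries, or 1671 ± 14.7 CPM (SD, n = 2) against 944 ± 16 CPM (SD, n = 2). Every WT value was above every G3 Terc-/- value, and WT was 1.77-fold higher. Its log2 fold change was -0.88 (SE, the standard error, 0.04, and Benjamini-Hochberg (BH) adjusted p = 1.10e-07 in edgeR's quasi-likelihood test). Of its 961 copies 215 had counts, 3 copies held over 50% of them and the 5 copies with most counts held 64.7%.

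The net fall of ERVB4_1C-LTR_Mm lay in few copies. Copy 429 had the most counts of the name, with 973 and 915 in WT against 485 and 470 in G3 Terc-/- libraries, a log2 fold change of -0.88 (SE 0.10), below the fold of 2 used for copies. Copy 225 had 733 and 775 counts in WT against 64 and 54 in G3 Terc-/- libraries, which is 11.9-fold higher in WT. Copy 853 had 320 and 335 counts in WT against 73 and 46 in G3 Terc-/- libraries, 5.17-fold higher in WT. All 3 were lower in both G3 Terc-/- libraries than in either WT library. Copy 320, chosen after its values were seen as one of the 5 with most counts, went the other way, with 226 and 261 counts in WT against 313 and 316 in G3 Terc-/- libraries (log2 fold change 0.48, SE 0.12). Copy 36, the fifth by counts, had 207 and 217 in WT against 35 and 40 in G3 Terc-/- libraries. Over all copies of the name, the falls in mean level added up to 964 CPM and the rises to 237 CPM, a net fall of 727 CPM, and the 5 copies with most counts made up 700.5 CPM of it, or 96.3%.

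Without copy 429, the level of ERVB4_1C-LTR_Mm was 1209 and 1226 CPM in WT against 698 and 695 CPM in G3 Terc-/- libraries, and the log2 fold change was -0.87 (SE 0.04). Without the 5 copies with most counts, it was 487 and 471 CPM in WT against 463 and 442 CPM in G3 Terc-/- libraries. The log2 fold change was then -0.14 (SE 0.06, unadjusted p = 0.0239, BH-adjusted p = 0.102 in edgeR's quasi-likelihood test), which is under the fold cutoff. Among the 85 copies of the name that were tested, 43 had a positive and 42 a negative log2 fold change, with a median of 0.03. The lower total of the name was thus not shared by most of its copies.

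**Figure D2:**
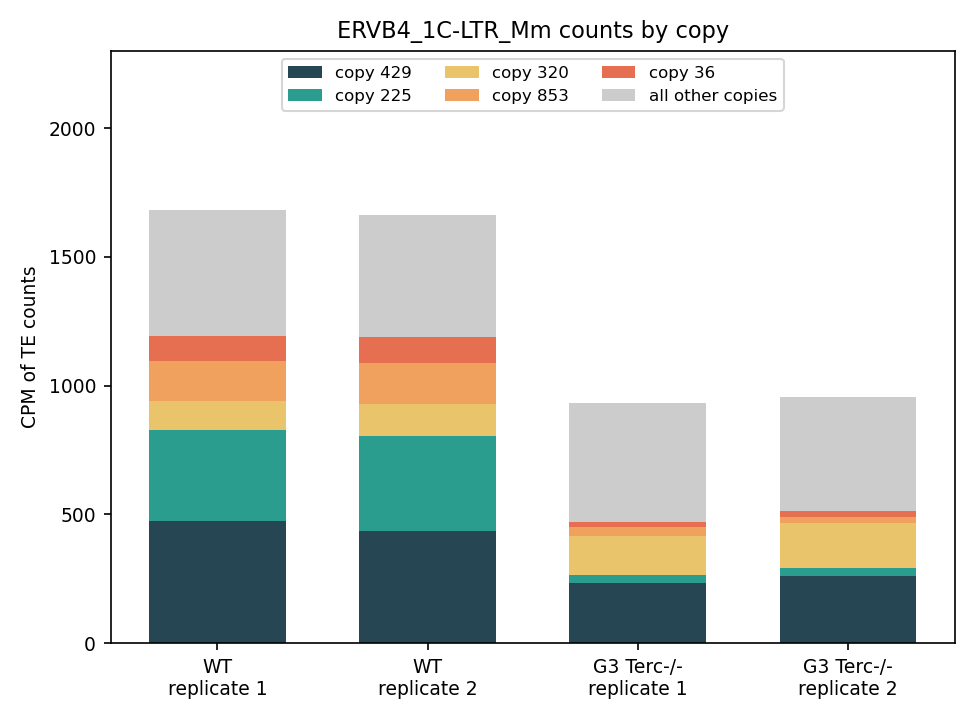
Level of ERVB4_1C-LTR_Mm in each of the 4 libraries, in CPM of the TE counts, divided into the 5 copies with most counts (coloured) and all other copies of the name (grey). The grey parts lie between 442 and 487 CPM in all 4 libraries, while the part of copy 225 shrinks from a mean of 362 CPM in WT to 30.5 CPM in G3 Terc-/-.

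ERVB3 was higher in G3 Terc-/- ESCs in both of its names, and here too the difference rested on few copies. ERVB3_1-I_MM-int, the internal part, had 91 and 106 counts in WT against 242 in each G3 Terc-/- library (2.66-fold, log2 fold change 1.35). Its copy 15 had 82 and 96 counts in WT against 233 in each G3 Terc-/- library (log2 fold change 1.49, SE 0.15, BH-adjusted p = 2.95e-11 in edgeR's quasi-likelihood test over copies). The other 133 copies together had 9 and 10 counts in WT against 9 in each G3 Terc-/- library, too few for a test. ERVB3_1-LTR_MM had 99 and 104 counts in WT against 195 and 189 in G3 Terc-/- libraries (2.04-fold, log2 fold change 0.97), with no overlap. Its leading copy 22 had 27 and 26 counts in WT against 63 and 65 in G3 Terc-/- libraries, and copy 21 had 23 and 19 in WT against 46 and 49 in G3 Terc-/- libraries. Copy 23, with the next running number and chosen after its values were seen, had 6 and 14 counts in WT against 23 in each G3 Terc-/- library. All 3 were higher in both G3 Terc-/- libraries. Without copy 22 the name had a log2 fold change of 0.81 (SE 0.14), and without its 5 leading copies 0.26 (SE 0.44), from 13 and 12 counts in WT against 15 and 14 in G3 Terc-/- libraries.

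Of the other ERVB4 LTRs, ERVB4_2-LTR_MM was higher in G3 Terc-/- ESCs. It had 49 and 68 counts in WT against 141 and 121 in G3 Terc-/- libraries (2.41-fold, log2 fold change 1.22), without overlap. Of its 18 tested copies 3 passed an adjusted p of 0.05, and these 3 were higher. Copy 55 had 6 and 3 counts in WT against 42 and 29 in G3 Terc-/- libraries, an 8.39-fold difference. Copy 25 had 0 and 5 counts in WT against 26 and 21 in G3 Terc-/- libraries, and copy 123 had 3 and 2 in WT against 17 in each G3 Terc-/- library. The WT libraries thus held few counts on any of these copies. Copy 25 did not pass with either G3 Terc-/- library left out (unadjusted p = 0.0844 without replicate 1 and 0.0606 without replicate 2 in edgeR), and its log2 fold change of 3.27 came to 2.31 without WT replicate 1 and to 7.59 without WT replicate 2, where WT was at 0 and the fitted value is no bound. With copy 55 left out the log2 fold change of the name was 0.86 (SE 0.21, BH-adjusted p = 0.0223 in edgeR), and without the 5 leading copies it was 0.28 (SE 0.27).

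ERVB4_1B-LTR_MM had 28.1% of the ERVB2 to ERVB5 counts, and its sum was close to level. It had 1573 and 1653 counts in WT against 1758 and 1442 in G3 Terc-/- libraries (log2 fold change 0.04, SE 0.05, BH-adjusted p = 0.618 in edgeR's quasi-likelihood test). A single copy, number 590, had 1439 and 1507 counts in WT against 1587 and 1251 in G3 Terc-/- libraries, which overlapped, and held 90.0% of the counts. The remaining copies had 134 and 146 counts in WT against 171 and 191 in G3 Terc-/- libraries (log2 fold change 0.41, SE 0.14). Without the 5 leading copies the name had 33 counts in each WT library and 56 and 54 in the G3 Terc-/- libraries, a log2 fold change of 0.78 (SE 0.25, BH-adjusted p = 0.0256 in edgeR) that passed the cutoffs. In mean level the name went from 775 CPM in WT to 825 CPM in G3 Terc-/- libraries, and copy 590 from 707 to 731 CPM. The rise in CPM was thus not confined to the copies outside the leading ones. Only the log2 fold change was larger without the leading copies, whereas the net fall of ERVB4_1C-LTR_Mm lay mostly in its 5 leading copies. Other copies of ERVB4_1C-LTR_Mm differed in both directions, as given below.

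The ERVB4 internal parts gave smaller differences. ERVB4_2-I_MM-int had 209 and 226 counts in WT against 318 and 251 in G3 Terc-/- libraries, without overlap, but its log2 fold change of 0.44 (SE 0.11, BH-adjusted p = 0.0126 in edgeR) was under the fold cutoff. Its leading copy 105 had 58 and 77 counts in WT against 90 and 64 in G3 Terc-/- libraries and overlapped between the genotypes. The log2 fold change of the name was 0.63 (SE 0.20) without its 5 leading copies, past the cutoff. ERVB4_1B-I_MM-int, with the most copies of any of the 16 names (1368), had 238 and 264 counts in WT against 296 and 343 in G3 Terc-/- libraries (log2 fold change 0.41, BH-adjusted p = 0.0545 in edgeR). It was not called, and 1 library decided this, since its log2 fold change was 0.61 and past both cutoffs without G3 Terc-/- replicate 1 and 0.19 without replicate 2. Its counts were spread more widely, with 14.5% on the leading copy. That copy, number 1109, had 18 and 30 counts in WT against 54 and 64 in G3 Terc-/- libraries (log2 fold change 1.40), and did not pass without G3 Terc-/- replicate 2 (unadjusted p = 0.0509 in edgeR). ERVB4_1-I_MM-int had 70 and 84 counts in WT against 66 and 71 in G3 Terc-/- libraries, and ERVB4_3-I_MM-int had 33 and 21 in WT against 29 and 24 in G3 Terc-/- libraries. Both overlapped, at log2 fold changes of -0.11 (SE 0.19) and 0.03 (SE 0.32). Their leading copies, number 206 of ERVB4_1-I_MM-int (5 and 20 counts in WT, 6 and 16 in G3 Terc-/-) and number 93 of ERVB4_3-I_MM-int (26 and 16 in WT, 23 and 19 in G3 Terc-/-), overlapped as well. ERVB4_3-LTR_MM had 3 and 5 counts in WT against 8 and 5 in G3 Terc-/- libraries, too few for a test. The 21 copies of ERVB4_1-LTR_MM had 0 counts in all 4 libraries, which allows up to 3 counts in each.

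ERVB5_1-I_MM-int was the only ERVB5 name called. It had 59 and 33 counts in WT against 84 and 73 in G3 Terc-/- libraries, or 22.2 ± 9.18 CPM (SD, n = 2) against 40.6 ± 0.160 CPM (SD, n = 2). Both G3 Terc-/- libraries lay above both WT libraries, but the WT libraries lay far apart. The log2 fold change was 0.82 (SE 0.25, BH-adjusted p = 0.0393 in edgeR's quasi-likelihood test). It was 0.45 and no longer past the cutoffs without WT replicate 2 (unadjusted p = 0.0759 in edgeR), and 1.31 without WT replicate 1. None of its 7 tested copies had an unadjusted p under 0.05 by itself, and all 7 had a positive log2 fold change, between 0.55 and 1.37. These 7 have the neighbouring running numbers 159 to 162 and 260 to 262, and should not be read as independent. The 5 leading copies held 83.5% of the counts of the name, so the shared sign largely repeats its sum. The leading copy 159 had 13 and 12 counts in WT against 20 and 19 in G3 Terc-/- libraries. ERVB5_1-LTR_MM had 49 and 50 counts in WT against 41 and 35 in G3 Terc-/- libraries (log2 fold change -0.33, SE 0.22), and ERVB5_2-LTR_MM had 66 and 52 in WT against 65 and 42 in G3 Terc-/- libraries (log2 fold change -0.09, SE 0.23). Neither LTR of ERVB5 passed the test. Copy 20, with 61.7% of the counts of ERVB5_1-LTR_MM, had 35 and 23 in WT against 27 and 23 in G3 Terc-/- libraries, and copy 420, with 12.9% of those of ERVB5_2-LTR_MM, had 6 in each WT library against 9 and 8.

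ERVB2 is represented by internal parts alone. ERVB2_1A-I_MM-int had 233 and 245 counts in WT against 234 and 210 in G3 Terc-/- libraries, with means of 115 CPM in both genotypes (log2 fold change -0.05, SE 0.10, BH-adjusted p = 0.777 in edgeR's quasi-likelihood test). Its leading copy 124 had 97 and 114 counts in WT against 64 and 73 in G3 Terc-/- libraries and did not overlap between the genotypes (log2 fold change -0.51, SE 0.19, BH-adjusted p = 0.257 in edgeR). The other copies had 136 and 131 counts in WT against 170 and 137 in G3 Terc-/- libraries (log2 fold change 0.24, SE 0.12, unadjusted p = 0.0746 in edgeR). The sum of this name therefore held a leading copy and a remainder with opposite signs. ERVB2_1-I_MM-int had 5 and 7 counts in WT against 2 and 6 in G3 Terc-/- libraries and was not tested.

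**Figure D3:**
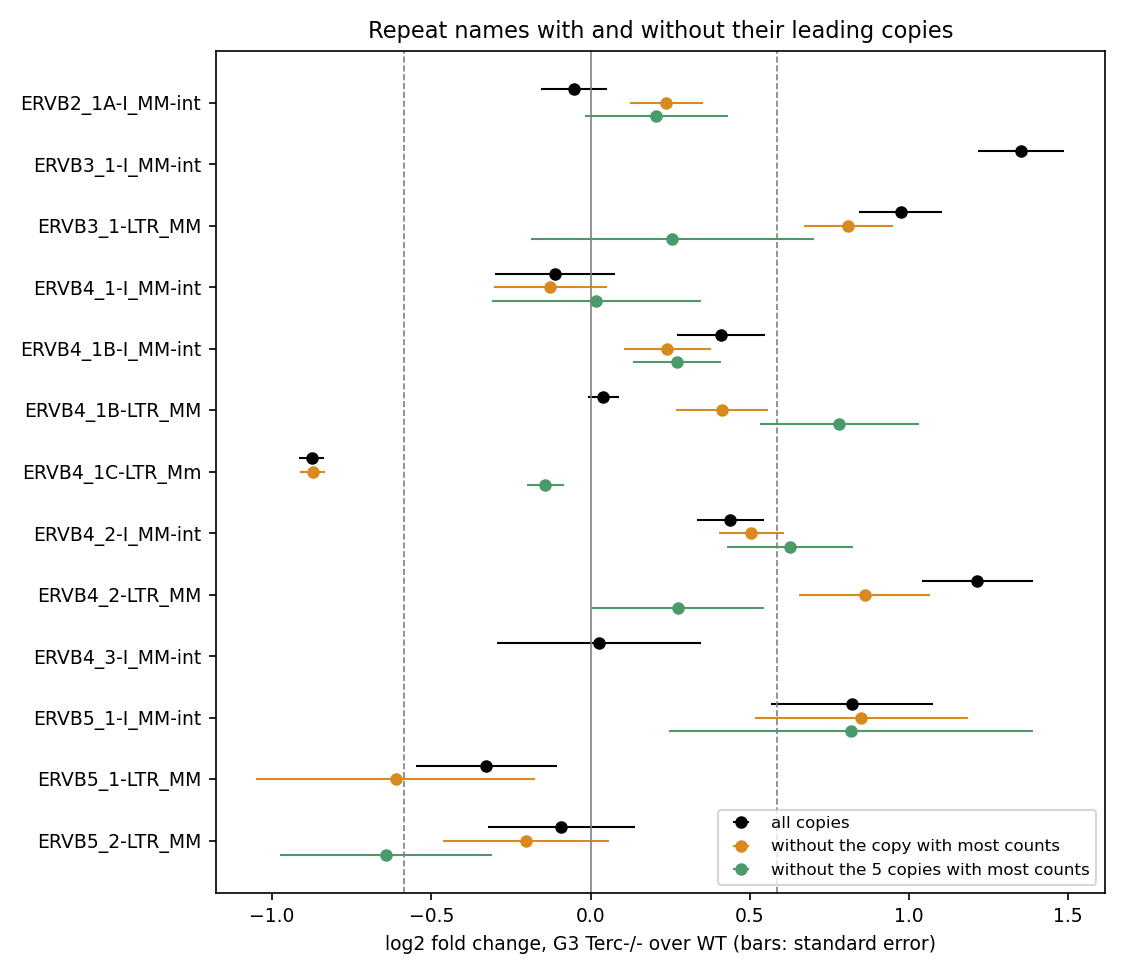
Log2 fold change (G3 Terc-/- over WT) of the 13 tested names with its standard error, for all copies (black), without the copy with most counts (orange) and without the 5 copies with most counts (green); dashed lines mark a fold of 1.5, and a missing point had too few counts. ERVB4_1C-LTR_Mm moves from -0.88 and -0.87 to -0.14, and ERVB4_1B-LTR_MM from 0.04 to 0.41 and 0.78.

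Counts were unevenly spread over the copies. Of the 5606 copies, 709 (12.6%) had a count in any library, against 14.6% of all TE copies, and 4897 had none. Per library, 357 and 349 copies had a count in WT against 414 and 367 in G3 Terc-/- ESCs. Of the 709, 253 copies, 4.51% of all, had at least 5 counts over the 4 libraries and were tested as single copies, and these held 96.6% of the counts with a median of 14 counts each. The 28 copies with at least 100 counts held 77.6%. In 4 of the 13 tested names a single copy held over 50% of the counts.

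Single copies were called at a fold change over 2 with an unadjusted p under 0.05, in a fit over all 176114 copies with at least 5 counts. Of the 253 ERVB copies tested, 40 were higher in G3 Terc-/- ESCs (15.8%, against 4.7% of all copies tested) and 23 were lower (9.09%, against 3.87%). Leaving out G3 Terc-/- replicate 2 gave 16 higher copies, G3 Terc-/- replicate 1 gave 21 and WT replicate 2 gave 25, and leaving out WT replicate 2 gave 13 lower copies. With an adjusted p under 0.05 in place of the unadjusted one, 12 were higher (4.74%, against 0.634%) and 7 were lower (2.77%, against 0.366%), and 12 of these 19 copies were of ERVB4_1C-LTR_Mm. A positive log2 fold change was found for 151 copies and a negative one for 102, with a median of 0.34 against 0.02 over all copies tested. Copies that reached 5 counts through 1 genotype alone had to differ, so the counts and the median describe the copies tested and not all 5606.

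**Figure D4:**
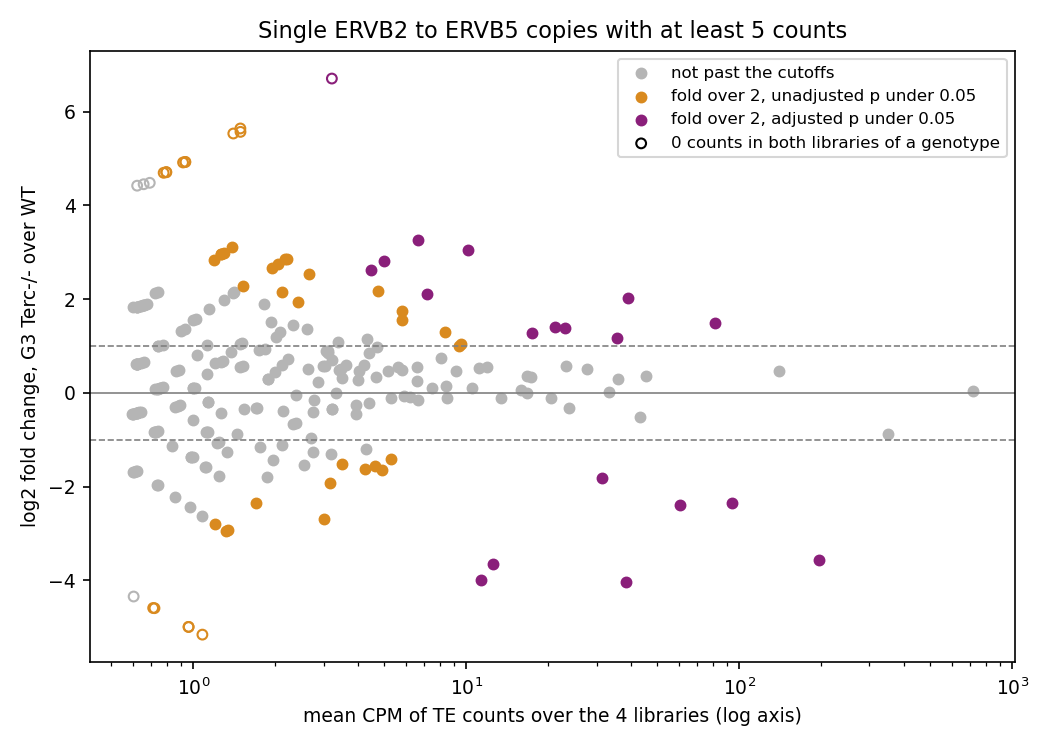
Log2 fold change (G3 Terc-/- over WT) of the 253 tested ERVB2 to ERVB5 copies against their mean level in CPM of the TE counts on a log axis; grey copies were not called, orange copies passed a fold of 2 with an unadjusted p under 0.05 and purple copies with an adjusted p under 0.05, and open circles had 0 counts in both libraries of a genotype. Dashed lines mark a fold of 2, and the 19 purple copies comprise 12 above 0 and 7 below.

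The 7 copies that were lower by adjusted p were all of ERVB4_1C-LTR_Mm. Besides copies 225, 853 and 36, they were copies 718, 890, 712 and 929. Copy 718 had 135 and 168 counts in WT against 8 and 9 in G3 Terc-/- libraries, or 16.4-fold higher in WT (log2 fold change -4.03, SE 0.27, BH-adjusted p = 7.39e-19 in edgeR's quasi-likelihood test). Copy 890 had 107 and 97 counts in WT against 36 and 18 in G3 Terc-/- libraries. Both were lower in each G3 Terc-/- library than in either WT library. Copy 712 had 56 and 41 counts in WT against 6 and 1 in G3 Terc-/- libraries, and copy 929 had 42 and 47 in WT against 2 and 3 in G3 Terc-/- libraries, which is 16.2-fold higher in WT. In no case did a G3 Terc-/- library reach the lower WT library, which choosing copies by p favours. Copies 718, 929 and 712 had at most 9 counts in a G3 Terc-/- library.

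Another 5 copies of the same LTR were higher by adjusted p. Copy 321 had 32 counts in each WT library and 125 and 117 in the G3 Terc-/- libraries (4.08-fold, log2 fold change 2.02, SE 0.21, BH-adjusted p = 8.92e-11 in edgeR's quasi-likelihood test). Copy 456 had 41 and 50 counts in WT against 104 and 88 in G3 Terc-/- libraries (2.27-fold). Copy 654 had 0 counts in both WT libraries against 14 and 11 in G3 Terc-/- ESCs, at least 8.96-fold higher against a floor of 3 counts over the WT group. It reached 5 counts through G3 Terc-/- libraries alone, which fixed its direction. Copy 864 had 8 and 3 counts in WT against 21 and 24 in G3 Terc-/- libraries and did not pass without G3 Terc-/- replicate 2 (unadjusted p = 0.0614 in edgeR), and copy 229 had 3 and 2 in WT against 15 in each G3 Terc-/- library. With copy 654 set aside, the same LTR name still held copies that changed in both directions. In WT the 5 higher copies had at most 50 counts in a library and the 7 lower ones at least 41. Choosing copies by fold and p favours such a split.

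**Figure D5:**
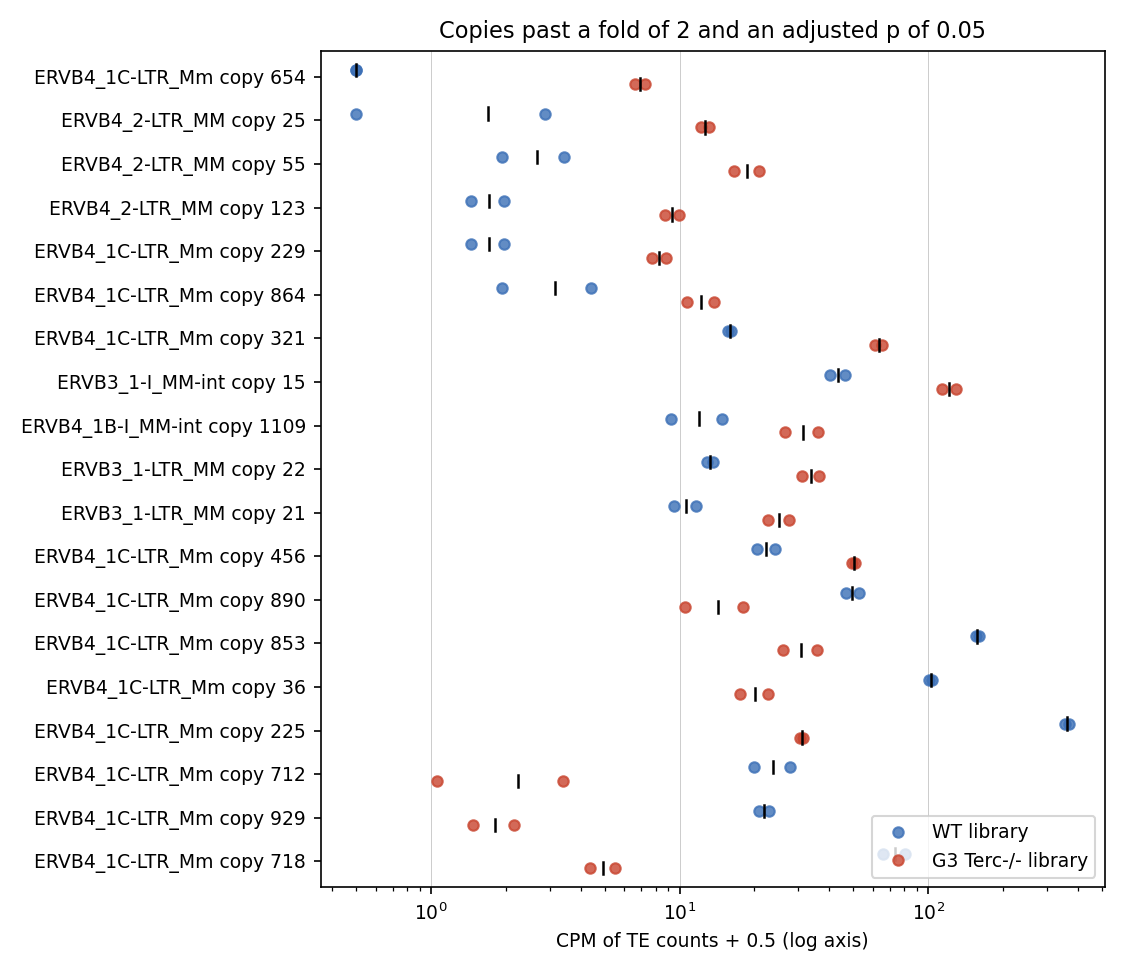
Level of the 19 copies past a fold of 2 and an adjusted p of 0.05, in CPM of the TE counts plus 0.5 on a log axis; each point is 1 library (blue WT, red G3 Terc-/-) and black ticks are means of 2 libraries. Blue and red points do not overlap in any of the 19, which choosing copies by p favours. The 7 copies with blue to the right are all of ERVB4_1C-LTR_Mm.

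Among the tested copies, 13 had 0 counts in both WT libraries and 6 had 0 in both G3 Terc-/- libraries. They reached 5 counts through the other genotype, which fixed their direction, so their calls carry no weight of their own. They made up 10 of the 40 copies called higher and 5 of the 23 called lower. Other than copy 654, they had at most 12 counts over both libraries of the other genotype. At this depth an ERVB copy without counts in a genotype cannot be called silent there.

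Each copy carries its repeat name with a running number and no position, and what orders the numbers is not given in the sources used here. A tested copy with a neighbouring running number of the same name that was also tested was found for 102 of the 253 ERVB copies (40.3%), against 47.8% of all copies tested. Of the 61 such pairs, 46 had log2 fold changes of the same sign, as did 18 of the 20 pairs in which both copies had at least 20 counts. A copy within a run of numbers enters more than 1 pair, and the share among neighbouring pairs of all TE copies was not computed. In 2 of these 20 pairs, both of ERVB4_1C-LTR_Mm, the counts were within 1 of each other in every library. Copies 8 and 9 had 6, 4, 3 and 12 and 5, 4, 3 and 12 counts in the WT and then the G3 Terc-/- libraries, and copies 495 and 496 had 14, 18, 4 and 7 and 14, 17, 3 and 6. The pair 249 and 250 went opposite ways, with 9, 13, 3 and 0 counts in copy 249 and 3, 8, 21 and 14 in copy 250. These 3 pairs were chosen after their values were seen. Whether such copies are pieces of 1 element or were counted from the same reads was not tested, so neighbouring copies should not be read as independent. Reads of a gene that spans an ERVB copy could not be separated from transcription of the element itself.

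ERVB7, the group of the same name series that was left out, is listed here under LTR names. Its LTR ERVB7_1-LTR_MM had 3114 and 3351 counts in WT against 742 and 645 in G3 Terc-/- libraries, whereas the log2 fold changes of its other 4 LTR names lay between -0.48 and 0.37. A difference between ERVB7 and the ERVB2 to ERVB5 names was not tested.

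Genes known to silence endogenous retroviruses in ESCs were described beside the elements, from a list of 37 written from general knowledge. All 37 were tested, in a fit over 14896 genes, and their median log2 fold change was -0.08 against 0.0062 over all genes, with a range from -1.24 to 0.41. At a fold of 2 with an unadjusted p under 0.05, 2 of the 37 were lower (Cbx3 and Dnmt3b) and 0 were higher by edgeR and by DESeq2, against 3.13% and 4.73% of all genes tested, so that these counts are near the background. At an unadjusted p under 0.05 at any size 5 were higher and 16 lower, against 25% and 24.8% of all genes. By adjusted p at any size, 5 of the 37 were higher and 15 were lower, against 21.7% and 21.8% of all genes tested. Trim28, the corepressor recruited by KRAB zinc finger proteins, had 35630 and 36215 counts in WT against 49520 and 38403 in G3 Terc-/- libraries (log2 fold change 0.41, BH-adjusted p = 9.46e-10 in edgeR's quasi-likelihood test). Setdb1, its H3K9 methyltransferase partner, had 3990 and 4200 in WT against 4007 and 3370 in G3 Terc-/- libraries (log2 fold change -0.03, BH-adjusted p = 0.711 in edgeR). Of this pair, the corepressor was thus higher and the methyltransferase did not pass the test.

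The largest changes among the silencing genes were falls. Dnmt3b, a de novo DNA methyltransferase, had 11230 and 11596 counts in WT against 5129 and 4405 in G3 Terc-/- libraries (log2 fold change -1.13, SE 0.05), while Dnmt3l, the catalytically inactive cofactor of the de novo enzymes, had a log2 fold change of 0.31 (SE 0.05). Cbx3, the heterochromatin protein HP1 gamma, had 3400 and 3708 counts in WT against 1427 and 1318 in G3 Terc-/- libraries (log2 fold change -1.24), although reads of Cbx3 can be shared with its processed pseudogenes. Smarcad1, a chromatin remodeller that helps to keep endogenous retroviruses silent in ESCs, had 3654 and 3828 in WT against 1805 and 1704 in G3 Terc-/- libraries (log2 fold change -0.96). Cbx3 and Smarcad1 both lie on chromosome 6, where 12.4% of the 691 genes tested were lower at a fold of 2, against 2.68% of 14182 on other chromosomes. DNA of the lines was not analysed here, and the part of gene copy number in these falls was not tested. Rif1, which binds telomeres and heterochromatin, had a log2 fold change of 0.24 (SE 0.05). Silencing genes thus differed in both directions, with more of the 37 lower (15) than higher (5) by adjusted p. Their relation to the ERVB copies was not tested.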

How the data were processed

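RNA-seq libraries of WT and G3 Terc-/- ESCs, 2 of each, were compared. The authors aligned reads to mm10 (STAR) and deposited tables of counts, one for genes and one for single TE copies, without normalization. The submitters' processing notes also list Trim Galore and featureCounts, and the strand setting is not given in the sources used here. For single TE copies the study's methods name uniquely mapped reads.

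Sums per repeat name, single copies with at least 5 counts, and genes were tested with edgeR 4.0.16 in R 4.3.3 (TMM, filterByExpr for names and genes, a two-sided quasi-likelihood test with genotype as its single term, Benjamini-Hochberg adjustment over all features). Cutoffs were a p of 0.05 with a fold change of 1.5 for names and 2 for copies and genes, after the study's methods. CPM values are counts per 1000000 TE (or gene) counts, and TMM moved the log2 fold changes of the ERVB names by a median of -0.05 against them. A count of 0 allowed up to 3 counts, for counting error only.

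Named were every ERVB2 to ERVB5 name, its leading copy, up to 15 copies in each direction by smallest p past a fold of 2 and an adjusted p of 0.05, and up to 3 silencing genes in each direction. Setdb1 was added after its values were seen. Elements, lists and tests were chosen with earlier results of these data known. Alternatives were DESeq2 1.42.0, its size factors in edgeR, scaling by gene counts, other filters, adjusted p-values, a replicate block, leading copies left out and each library left out (the lone library was assumed to vary like the other group). Figures were drawn with matplotlib 3.10.9. Sequences and positions of the copies were not analysed here.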

Additional observations from a re-analysis of the deposited data

How the results depend on the processing

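Leaving out the 5 copies with most counts of each name was chosen after seeing the data. Of the 10 names then tested 2 were higher and 0 lower, in place of 4 and 1 of 13, and both were names not called before (at an unadjusted p under 0.05 at any size, 2 were higher and 1 lower), and 0 lower in place of the 1 left without the leading copy. With each library left out, 3 to 5 names were higher and 1 was lower. Under the other alternatives the counts of names were within 1.5 times.

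Counts of called copies depended more on the settings. In place of 40 higher and 23 lower, DESeq2 called 21 and 10, and the counts were 17 and 12 with filterByExpr, 19 and 14 with at least 20 counts, 12 and 7 by adjusted p, and 16 to 30 and 13 to 19 with a library left out. Fewer copies are tested under both stricter filters; for DESeq2 the cause was not tested.

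Same-numbered libraries did not deviate together (correlation -0.047 over names and 0.0617 over genes), so the numbers were not taken as pairs. With replicate number as the replicate block, 4 names were higher and 1 was lower, and 29 copies were higher and 17 lower.

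Scaled to gene counts, the log2 ratio of all elements was -0.15 and of ERVB4 LTRs -0.37. Without leading copies the ratios were -0.34 for all, 0.29 for ERVB2 internal parts, 0.88 for ERVB3 LTRs, 0.0345 for ERVB3 internal parts and -0.64 for ERVB4 LTRs.

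Signs turned for uncalled names and copies only, and the cause was not tested. The log2 fold change of ERVB2_1A-I_MM-int was 0.0191 under scaling by gene counts, 0.24 without its leading copy and 0.21 without 5. That of ERVB4_1-I_MM-int was 0.0183 without 5 copies and that of ERVB5_2-LTR_MM 0.0796 with only copies of at least 5 counts. With a library left out, the ranges were -0.27 to 0.0429 for ERVB4_1-I_MM-int (0.00524 without WT replicate 2), -0.00189 to 0.0794 for ERVB4_1B-LTR_MM, -0.28 to 0.40 for ERVB4_3-I_MM-int (-0.0111 without G3 Terc-/- replicate 1) and -0.33 to 0.10 for ERVB5_2-LTR_MM (0.0940 without G3 Terc-/- replicate 2). For leading copies they were -4.62 to 0.59 (copy 18 of ERVB2_1-I_MM-int), -0.997 to 1.21 (copy 206 of ERVB4_1-I_MM-int, 0.55 without G3 Terc-/- replicate 1), -0.0428 to 0.15 (copy 590 of ERVB4_1B-LTR_MM), -0.23 to 0.50 (copy 93 of ERVB4_3-I_MM-int) and -0.41 to 0.23 (copy 20 of ERVB5_1-LTR_MM). Smarcad1 passed the fold cutoff at -1.06 without G3 Terc-/- replicate 2. Depth limits all single copies, whose median was 14 counts.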
